A study of Mus musculus with 23 samples.

Results

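Interferon-stimulated genes are transcribed after interferons bind their receptors, and 40 of them, antiviral effectors and the factors that regulate the response, were chosen by name, with earlier results of these data known. The deposited table held 37 of the 40 among its 19945 genes, and all 37 were among the 15268 genes tested. Ifit3, Ifit3b and Oas1a were not analysed here. RNA sequencing had been done on 23 libraries of mouse cells labelled ILC2s, which stands for innate lymphoid cells of group 2.

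In the brain day 5 group (6 libraries) cells were recovered from brain 5 days after middle cerebral artery occlusion (MCAO, a surgical model of ischemic stroke), and in the blood day 5 group (6 libraries) from blood at the same time. The blood day 1 group (6 libraries) was recovered from blood on day 1, and the culture group (5 libraries) was taken straight from the culture medium, with no transfer and no occlusion. All 4 groups came from male donors aged 8 to 10 weeks, transgenic and wild-type mice of B6.Cg-Tg(CAG-GFP)Smoc, in which the CAG promoter drives GFP in most cell types. Donors had been given IL-33 intraperitoneally at intervals of 2 days over 7 days. CD25+ cells of bone marrow and spleen without lineage markers were then cultured for 14 days with IL-7 and IL-15 beside IL-2 and IL-33. A CD45+Lin-ST2+KLRG1+CD127+ gate selected the cells for transfer, which were given by vein 6 hours after the occlusion. The labels do not say whether the culture libraries went through that last sort, how cells were picked out again from blood and brain, or whether each library came from its own animal, so p-values measure only the spread between these libraries. Culture replicates 1 to 3 (chi-square per degree of freedom of their reads 4.26 to 13.1) and brain day 5 replicates 1 and 3 (9.89) were closer to each other than any other pair within a group (47.7 or more).

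Each library held 11.6 M to 58.1 M reads (M, 10 to the power of 6), 11.6 M to 16.9 M in the 12 libraries of the labels' batch 1 and 27.8 M to 58.1 M in the 11 of batch 2, and both batches held all 4 groups. The values are normalized counts, reads per gene divided by one factor per library. Of the 7 ILC2 markers tested, 4 were lower in brain day 5 than in culture and 3 were higher. The brain day 5 libraries held few reads of Klrg1 (1.87 to 23.4 normalized counts, against 15664 to 50175 in culture), Gata3 (0 to 22.2, against 139 to 534) or Il2ra (0 to 15.5, against 13451 to 21066). The higher ones were Rora (793 to 1235 normalized counts in brain day 5, against 14.9 to 153 in culture), Il7r (35.8 to 142, against 0 to 75.8) and Il1rl1 (3.41 to 136, against 0 to 5.42). The whole ILC2 marker list made up 0.00388% to 0.0062% of a brain day 5 library, against 0.125% to 0.2701% of a culture library. In blood this list made up 0.056% to 0.136% on day 5 and 0.014% to 0.0795% on day 1. Of the 7 markers tested, 4 were higher and 1 lower than in culture on day 5, and 4 higher and 2 lower on day 1. Brain cell markers were high in the brain libraries: the 9 microglia markers made up 0.554% to 1.59% of a brain day 5 library, against 0.0108% to 0.0289% of a culture library, and the 6 choroid plexus markers 1.40% to 7.84%, against at most 0.00162% in culture. In the blood libraries the platelet list made up 0.185% to 1.45% on day 5 and 0.476% to 5.09% on day 1, against 0.000287% to 0.0446% in culture. The erythroid list made up 0.267% to 3.72% on day 5 and 0.357% to 8.39% on day 1, against 0.00104% to 0.409% in culture, and the neutrophil list 0.169% to 2.57% and 0.0337% to 0.221%, against 0.0037% to 0.0172%. Of the B cell list 7 of 7 genes were higher than in culture on day 5 and 6 on day 1, and of the monocyte and macrophage list likewise 7 of 7 and 6. The part of these cells in the blood results was not tested. The culture libraries themselves held 3 reads in all of Il1rl1, which encodes the ST2 of the sort, and 45714 to 221732 normalized counts of the T cell gene Cd3g. The NK cell list made up 0.211% to 1.16% of a culture library and the T cell list 0.316% to 1.02%. In bulk RNA, fewer cells of a type and less RNA per cell cannot be told apart. Groups are named below as the labels name them. Blood day 1 replicates 2 and 6, brain day 5 replicate 2 and culture replicate 5 stood apart from their groups, with median correlations of 0.773, 0.836, 0.795 and 0.852 with the other libraries of the group.

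Type I interferons bind the receptor made of IFNAR1 and IFNAR2, whose kinases JAK1 and TYK2 phosphorylate STAT proteins, STAT2 among them. STAT2 joins IRF9 in a complex that binds the interferon-stimulated response element (ISRE) in the promoters of its targets. Type II interferon, which lymphocytes secrete, acts through IFNGR1 and IFNGR2 on another element, the gamma-activated site (GAS). Targets include IRF7, which amplifies the response, USP18, which restrains it, and effectors that cut viral RNA, block its translation or hold virions at membranes.

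Promoter windows of 300 bases, from 250 before to 50 after the start site, were found for 26 of the 37 genes in RefSeq (build GRCm38.p6). The ISRE core, which is GAAA, NN (any bases) and GAAA without a gap and was searched on both strands, was present in 12 of the 26 (46.15%), against 3.993% of the 27025 genes with a window. Its longer form, the core followed by CT, every match of which also holds the core, was in 5 (19.23%), against 0.3034% of all genes, and the GAS TTCNNNGAA, its own reverse complement, in 6 (23.08%), against 9.554%. Shown here are the 150 bases before the start site for Ifit1, Isg15 and Rsad2, which rose in blood day 1, and for Bst2 and Ifitm2, which were lower in blood day 5 than in culture. Each is read 5′ to 3′ on the gene's strand, with bases of an ISRE core match in capitals: Ifit1 at chr19:34640739-34640888 (plus strand), Isg15 at chr4:156200819-156200968 (minus strand), Rsad2 at chr12:26456453-26456602 (minus strand), Bst2 at chr8:71537473-71537622 (minus strand) and Ifitm2 at chr7:140955962-140956111 (minus strand).

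Ifit1: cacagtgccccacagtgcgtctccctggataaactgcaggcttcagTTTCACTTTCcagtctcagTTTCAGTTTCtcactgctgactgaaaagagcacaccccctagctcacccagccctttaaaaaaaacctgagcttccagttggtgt
Isg15: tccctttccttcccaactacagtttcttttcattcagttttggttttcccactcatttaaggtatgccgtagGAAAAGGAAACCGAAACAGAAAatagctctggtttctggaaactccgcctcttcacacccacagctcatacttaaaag
Rsad2: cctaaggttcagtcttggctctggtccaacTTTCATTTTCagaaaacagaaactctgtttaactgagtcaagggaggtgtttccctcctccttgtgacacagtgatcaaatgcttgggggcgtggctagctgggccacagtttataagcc
Bst2: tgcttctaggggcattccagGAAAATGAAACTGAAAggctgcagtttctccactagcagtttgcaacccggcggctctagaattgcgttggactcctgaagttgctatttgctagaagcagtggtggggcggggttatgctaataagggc
Ifitm2: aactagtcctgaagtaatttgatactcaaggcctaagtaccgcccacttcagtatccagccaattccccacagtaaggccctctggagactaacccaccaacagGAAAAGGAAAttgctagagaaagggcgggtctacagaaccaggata

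Ifit1 held 2 matches, both on the reverse strand and both of the longer form, at 104 and 85 bases before the start site. Isg15 held 3 that overlap in one run of capitals, at 78, 72 and 66 bases before. Rsad2 held 1 on the reverse strand at 120 bases before. Bst2 held 2 overlapping matches, at 130 and 124 bases before, the first of the longer form, and Ifitm2 held 1, at 46 bases before. A match is a description of letters and not evidence of binding.

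**Figure D1:**
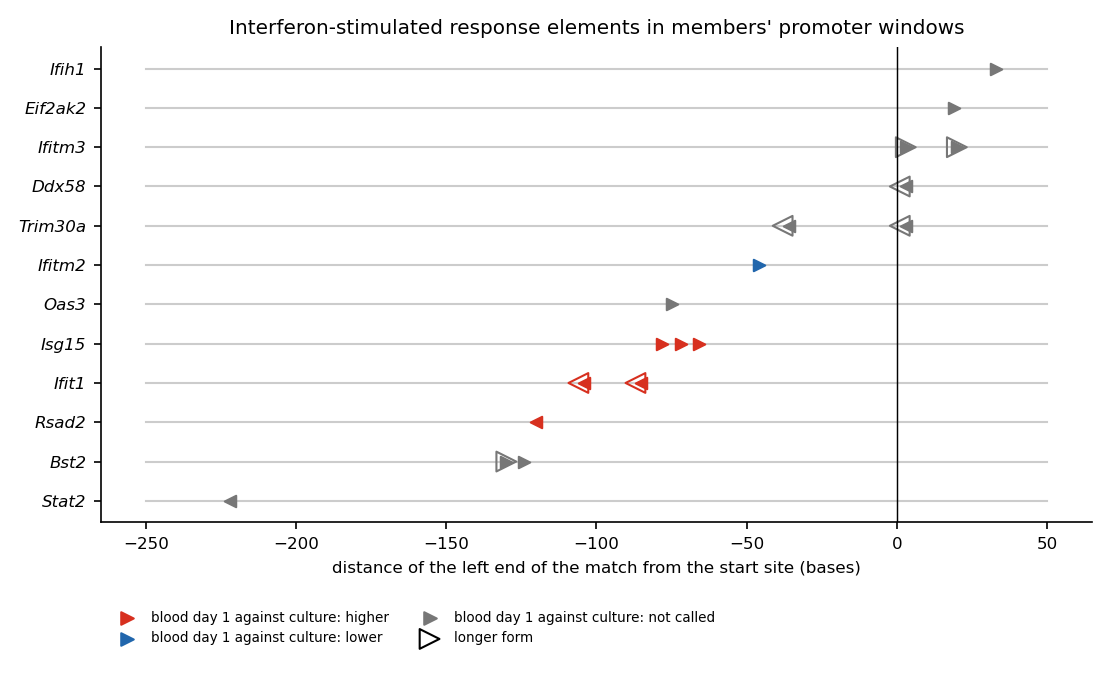
Positions of ISRE matches in the promoter windows of the 12 interferon-stimulated genes that hold one, by distance from the start site in bases. Filled arrowheads mark the core and open ones the longer form, pointing right for the gene's strand. Colours give the call in blood day 1 against culture. Of the 12 genes, 3 were higher, 1 was lower and 8 were not called.

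Relative to culture, 13 of the 37 genes rose in blood on day 1, against 18.1% of all genes tested, and 3 fell, against 14% of all genes. A gene is said to rise or fall only where the adjusted p passed 0.05 (limma on log2(normalized count + 1) with a term for the batch, Benjamini-Hochberg over all genes tested). The risers ran from 1.08 (Xaf1) to 8.38 (Ifit1) on the log2 scale, the 3 that fell were Samd9l, Ifitm2 and Parp9, and the other 21 lay between -1.89 and 3.56. In blood on day 5, 12 rose, against 19.6% of all genes, by 1.17 (Stat2) to 7.96 (Ifit1), and 2 fell, against 11.4%, Ifitm2 and Bst2. With equal library totals, which shift the median of all genes by 0.36, these counts were 13 and 2, and 76% of called genes were higher in place of 63.2%. Of the 15268 genes tested, 3659 were then called higher and 1155 lower, in place of 3000 and 1748. In brain on day 5, 14 rose, against 37.5% of all genes, and 10 fell, against 11.7%. With TMM scaling, which shifts the median of all genes by -0.37, the brain counts were 13 and 12, and 65.8% of called genes were higher in place of 76.3%. Of all genes tested, 5031 were then called higher and 2610 lower, in place of 5733 and 1780. The median log2 difference from culture over the 37 genes was 0.35 in brain day 5, against 0.67 over all genes, 0.37 in blood day 5, against 0.14, and 0.74 in blood day 1, against 0.04. The libraries did not overlap with culture in 12 of the 37 genes that were higher in brain day 5, against 28.4% of all genes, and 6 that were lower, against 7.27%. In blood day 5 these were 12, against 15.2%, and 4, against 9.54%, and in blood day 1 they were 10, against 9.7%, and 3, against 7.39%. These 3 comparisons share the culture libraries. With library quality weights the counts higher and lower were 22 and 10 in blood day 5 and 24 and 10 in blood day 1, with 9633 and 9921 of all genes called in place of 4748 and 4905. In batch 1 alone 6 of the 37 were lower in brain day 5, and in fits of both groups alone 5 were lower in blood day 5 and 1 in blood day 1. The shares of all genes called in these last fits are not given here, so their counts have no background beside them.

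**Figure D2:**
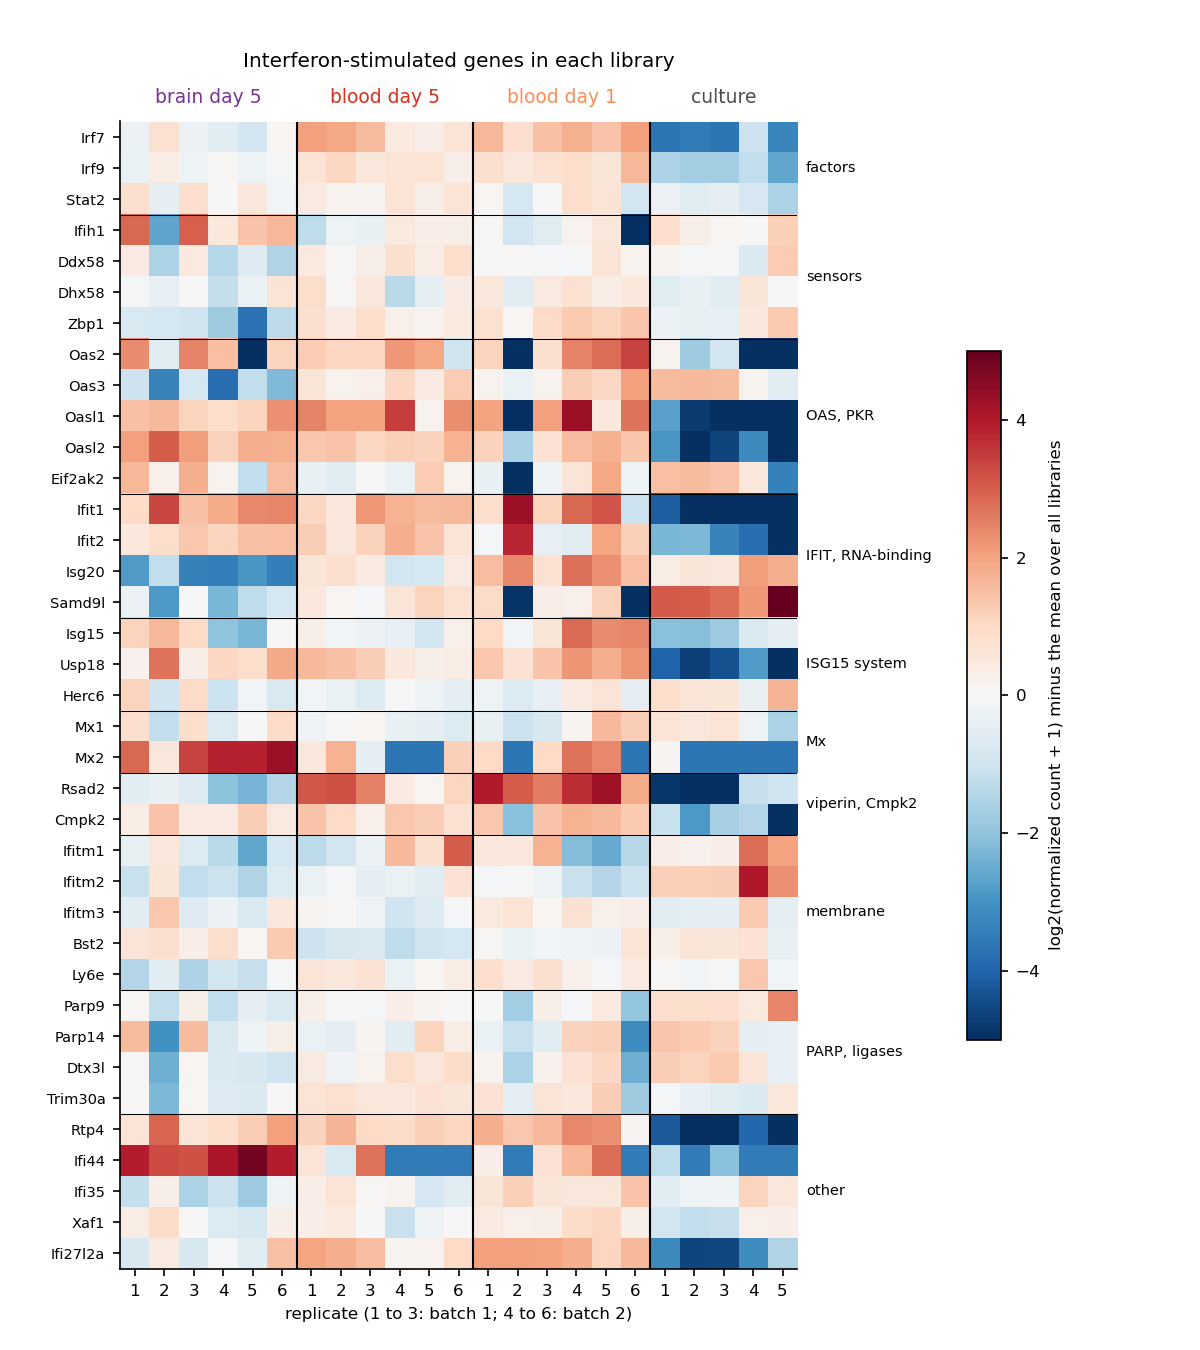
Each row is one of the 37 genes, grouped by role, and each column a library, by group and replicate number. Colour gives log2(normalized count + 1) minus the gene's mean over all 23 libraries, cut at 5 either way. Ifit1, Oasl1, Oasl2, Usp18 and Rtp4 are low in the 5 culture libraries. Ifi44 is high in the 6 brain day 5 libraries, and Mx2 in all of them but replicate 2.

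**Figure D3:**
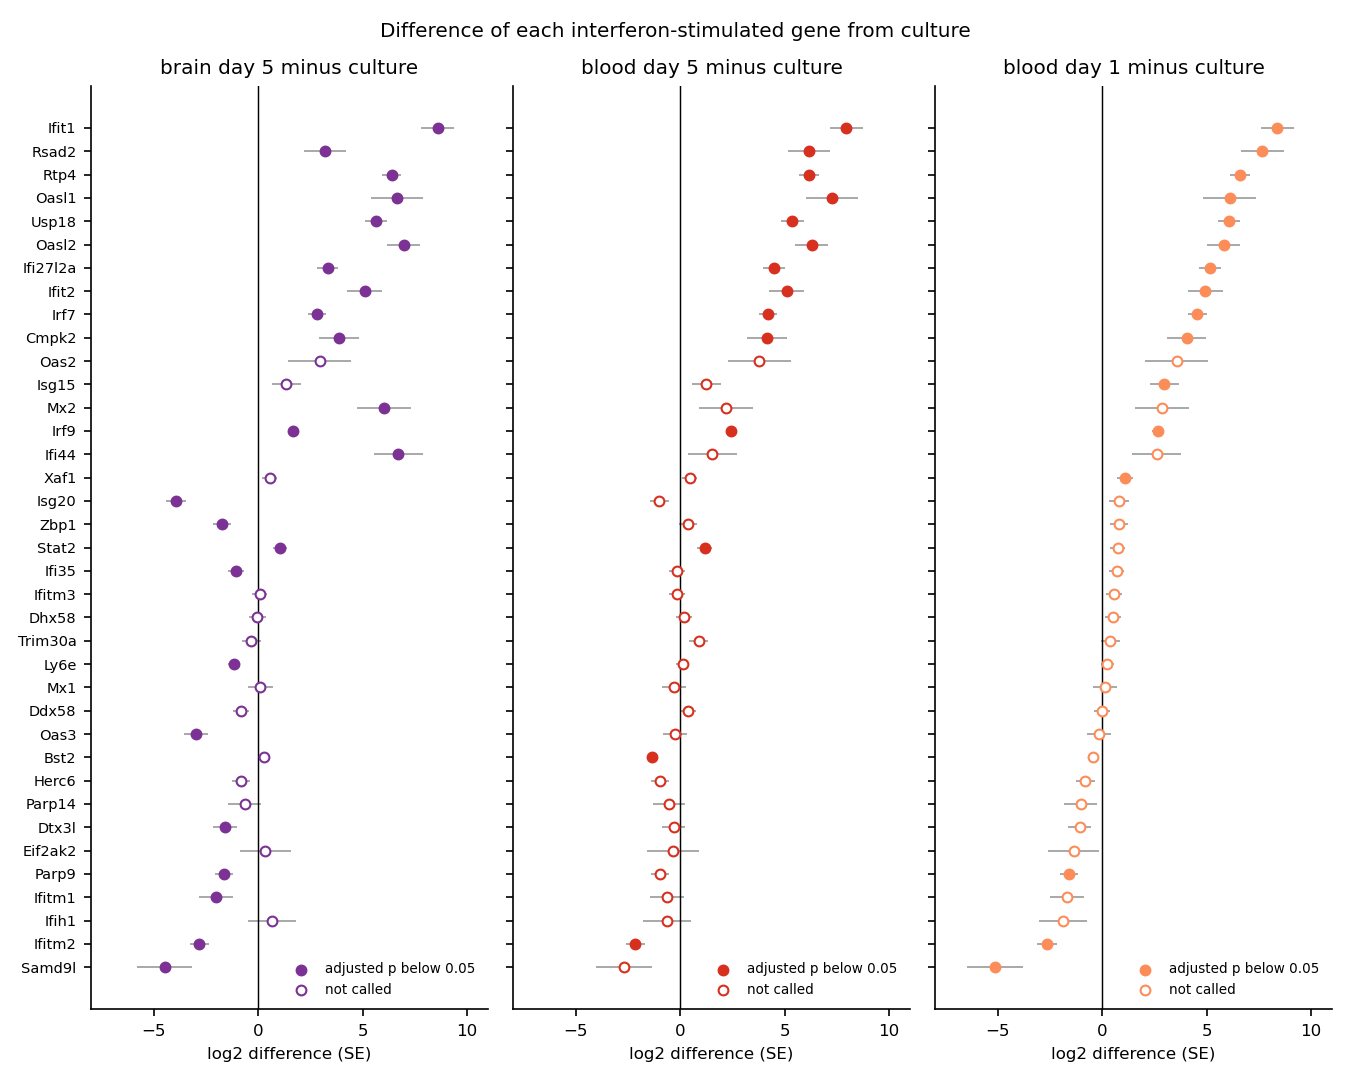
Log2 difference of each of the 37 genes from culture with its standard error, in brain day 5, blood day 5 and blood day 1. Filled points passed an adjusted p of 0.05. The upper rows, from Ifit1 down, lie right of 0 in all 3 panels, and Isg20 lies at -3.94 in brain and 0.80 in blood day 1.

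Differences below are on the log2(normalized count + 1) scale, with their standard error (SE), which understates the change of a gene near 0. Where 3 values stand for a group of 6 libraries, they are the lowest, the median and the highest, and the 5 culture values are given in replicate order.

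Irf7 encodes the factor that amplifies interferon transcription. Its normalized counts were 822, 1299 and 2689 in brain day 5, 2014, 3658 and 6597 in blood day 5 and 2876, 4739 and 6594 in blood day 1, against 126, 139, 129, 783 and 166 in culture. Every recovered library lay above every culture library, and among the culture libraries replicate 4 was far above the others. Irf7 rose relative to culture by 2.82 ± 0.44 in brain day 5 (adjusted p = 8.98e-06), 4.198 ± 0.44 in blood day 5 (1.03e-07) and 4.55 ± 0.44 in blood day 1 (3.38e-08). Irf9, the DNA-binding subunit of the ISRE complex, had 1552, 1725 and 2536 normalized counts in brain day 5, 2393, 3071 and 4019 in blood day 5 and 2842, 3365 and 6212 in blood day 1, against 668, 583, 589, 833 and 322 in culture. The recovered libraries did not overlap with culture, and Irf9 rose by 1.68 ± 0.25 in brain day 5 (adjusted p = 3.52e-06), 2.42 ± 0.25 in blood day 5 (6.08e-08) and 2.64 ± 0.25 in blood day 1 (1.74e-08). Irf9 shares exonic bases with Rnf31, and Irf7 with Phrf1, and whether reads were counted by strand was not stated. Stat2, which encodes the partner of IRF9 in the complex, had 567, 986 and 1432 normalized counts in brain day 5, 858, 1025 and 1275 in blood day 5 and 402, 819.9 and 1442 in blood day 1, against 637, 521, 563, 438 and 260.0 in culture. It rose by 1.04 ± 0.35 in brain day 5 (adjusted p = 0.0159) and 1.17 ± 0.35 in blood day 5 (0.012). In blood day 1 its difference of 0.74 ± 0.35 was not called (adjusted p = 0.109), and it was called at 0.93 without blood day 1 replicate 2 (0.0448) or replicate 6 (0.0412). The brain call was lost without culture replicate 5 (adjusted p = 0.0655) and with edgeR on recovered reads (0.139). It was also lost with equal library totals (0.0848), in batch 1 alone (0.11) and in batch 2 alone (0.0714). The blood day 5 call of Stat2 was lost in batch 1 alone, at 0.72 (0.206).

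Isg15 encodes a ubiquitin-like protein that is attached to other proteins, Usp18 the protease that removes it and also restrains the type I receptor, and Herc6 a ligase that attaches it in mice. Isg15 had 596, 832, 539, 66.7, 54.9 and 267 normalized counts in the 6 brain day 5 libraries, 144, 234 and 336 in blood day 5 and 248, 972 and 1949 in blood day 1, against 63.2, 62.1, 75.9, 164 and 193 in culture. Its blood day 1 libraries lay above all of culture, and brain day 5 replicate 4 lay within it and replicate 5 below it. Isg15 rose by 2.96 ± 0.69 in blood day 1 (adjusted p = 0.00197), and its differences of 1.34 ± 0.69 in brain day 5 (0.114) and 1.24 ± 0.69 in blood day 5 (0.189) were not called. Without brain day 5 replicate 4 or 5 the brain difference was called, at 1.73 (adjusted p = 0.0384) and 1.79 (0.0274). Usp18 had 463, 765 and 2609 normalized counts in brain day 5, 480.3, 745 and 1211 in blood day 5 and 656, 1218 and 1837 in blood day 1, against 23.5, 14.6, 18.2, 54.2 and 3.69 in culture. The groups did not overlap with culture, and Usp18 rose by 5.64 ± 0.54 in brain day 5 (adjusted p = 6.29e-09), 5.37 ± 0.54 in blood day 5 (5.22e-08) and 6.08 ± 0.54 in blood day 1 (9.07e-09). It overlaps the predicted gene Gm44148. Herc6 was not called in any comparison, with differences from culture of -0.83 in brain day 5, -0.98 in blood day 5 and -0.81 in blood day 1.

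Ifit1, whose protein binds viral RNA that lacks host cap marks, lies at chr19:34640871-34650009 (mm10, GENCODE M21). It had 347, 775 and 1795 normalized counts in brain day 5, 254, 529 and 777 in blood day 5 and 83.1, 821 and 3412 in blood day 1, against 9.03, 1.83, 0, 0 and 0 in culture. Culture was at 0 in 3 of 5 libraries, and every recovered library lay above it. The rise was 8.60 ± 0.79 in brain day 5 (adjusted p = 3.82e-09), 7.96 ± 0.79 in blood day 5 (5e-08) and 8.38 ± 0.79 in blood day 1 (2.5e-08). Ifit2, a neighbour of the same family on chromosome 19, had 346 to 686 normalized counts in brain day 5, 352 to 858 in blood day 5 and 162 to 3399 in blood day 1, against 0 to 49.3 in culture, again without overlap, and rose by 5.10 in brain day 5, 5.10 in blood day 5 and 4.94 in blood day 1. Isg20, which encodes an exonuclease for single-stranded RNA, had 243, 299.7 and 1111 normalized counts in brain day 5, 1358, 3499.8 and 4576 in blood day 5 and 4364, 10217 and 17598 in blood day 1, against 3378, 3932, 3739, 11190.1 and 9182 in culture. The 6 brain libraries lay below every other library, replicate 2 being the highest of them. Isg20 fell by 3.94 ± 0.47 in brain day 5 relative to culture (adjusted p = 1.8e-07), and its differences of -1.003 ± 0.47 in blood day 5 (0.111) and 0.80 ± 0.47 in blood day 1 (0.202) were not called. Samd9l, which encodes an antiviral protein that represses translation and cell growth, had 538, 90.3, 664, 135, 279 and 358 normalized counts in brain day 5, 643, 1015 and 1433 in blood day 5 and 1302, 21.7, 835, 792, 1485 and 0 in blood day 1, against 5555, 5494, 4693, 3015 and 22430.1 in culture. Every culture library lay above every recovered one, and blood day 1 replicates 2 and 6 were the lowest. It fell by 4.48 ± 1.33 in brain day 5 (adjusted p = 0.00691) and 5.14 ± 1.33 in blood day 1 (0.00462), and its difference of -2.69 ± 1.33 in blood day 5 was not called (0.135). The blood day 1 call was lost in a fit of the blood day 1 and culture libraries alone (adjusted p = 0.0638). In batch 2 alone neither call of Samd9l held, at -5.10 in brain day 5 (0.119) and -6.28 in blood day 1 (0.109).

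Oasl1 and Oasl2 encode relatives of the oligoadenylate synthetases, Oas2 and Oas3 encode synthetases that make the activator of RNase L, and Eif2ak2 encodes the kinase PKR, which stops translation when it meets double-stranded RNA. Oasl2 had 1169, 1994 and 4281 normalized counts in brain day 5, 1052, 1261 and 1735 in blood day 5 and 167, 1273 and 1792 in blood day 1, against 68.6, 14.6, 19.8, 56.9 and 0 in culture. The groups did not overlap with culture, although blood day 1 replicate 2, the lowest, lay far below the other 5. Oasl2 rose by 6.97 ± 0.78 in brain day 5 (adjusted p = 7.28e-08), 6.29 ± 0.78 in blood day 5 (1.15e-06) and 5.81 ± 0.78 in blood day 1 (3.64e-06). Oasl1 had 139.9 to 378 normalized counts in brain day 5, 85.8 to 836 in blood day 5 and 0 to 1504 in blood day 1, against 0 to 10.8 in culture. It rose by 6.63 in brain day 5, 7.28 in blood day 5 and 6.10 in blood day 1, where replicate 2 had no read. In batch 1 alone the blood day 1 difference of Oasl1 was 3.84 and was not called (adjusted p = 0.139). Oas3 had 22.4, 103 and 174 normalized counts in brain day 5, 364, 460.3 and 774 in blood day 5 and 254, 515 and 1351 in blood day 1, against 975, 983, 980.5, 364 and 225 in culture. Brain lay below culture in every library, and Oas3 fell by 2.97 ± 0.58 in brain day 5 (adjusted p = 0.000134). Neither blood group was called, with differences of -0.26 on day 5 and -0.16 on day 1. Oas2 had 0, 101 and 226 normalized counts in brain day 5, 19.5, 89.8 and 183 in blood day 5 and 0, 156 and 416 in blood day 1, against 45.1, 10.96, 19.8, 0 and 0 in culture, with 0 reads in brain replicate 5 and blood day 1 replicate 2. Its differences from culture of 2.95 in brain day 5, 3.78 in blood day 5 and 3.56 in blood day 1 were not called, at adjusted p from 0.061 to 0.113. Without 1 library each was called: 4.02 in brain without its replicate 5 (adjusted p = 0.0201), 4.44 in blood day 5 without culture replicate 1 (0.0406) and 5.00 in blood day 1 without its replicate 2 (0.00371). Eif2ak2 was not called in any comparison.

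Rsad2 encodes viperin, the enzyme that makes a chain-terminating nucleotide, and Cmpk2, its neighbour on chromosome 12, a kinase that supplies it. Rsad2 had 368, 428, 353, 130.1, 108 and 197 normalized counts in the brain day 5 libraries, 4688, 4946, 3131, 730.3, 578 and 1160.2 in blood day 5 and 8677, 4523, 3186, 7002, 10476 and 1999.7 in blood day 1, against 18.1, 1.83, 1.65, 247 and 271 in culture. Both blood groups lay above all of culture, and the brain libraries overlapped with it. Culture replicates 4 and 5, those of batch 2, were far above replicates 1 to 3, and the brain libraries of batch 2 lay below both. Rsad2 rose by 3.20 ± 1.02 in brain day 5 (adjusted p = 0.0115), 6.17 ± 1.02 in blood day 5 (5.1e-05) and 7.67 ± 1.02 in blood day 1 (3.49e-06). Within batches the brain difference was 6.19 in batch 1 and -0.88 in batch 2, and the brain call was lost with edgeR at 0.83 (adjusted p = 0.507) and DESeq2 at 1.19 (0.259) on recovered reads, and at 1.57 with the closest libraries averaged (0.245). The blood day 5 call of Rsad2 was lost in batch 2 alone, at 1.60 (0.105). Cmpk2 had 473 to 988 normalized counts in brain day 5, 442 to 1001 in blood day 5 and 86.7 to 1226 in blood day 1, against 0 to 172 in culture, and rose by 3.87 in brain day 5, 4.14 in blood day 5 and 4.04 in blood day 1.

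**Figure D4:**
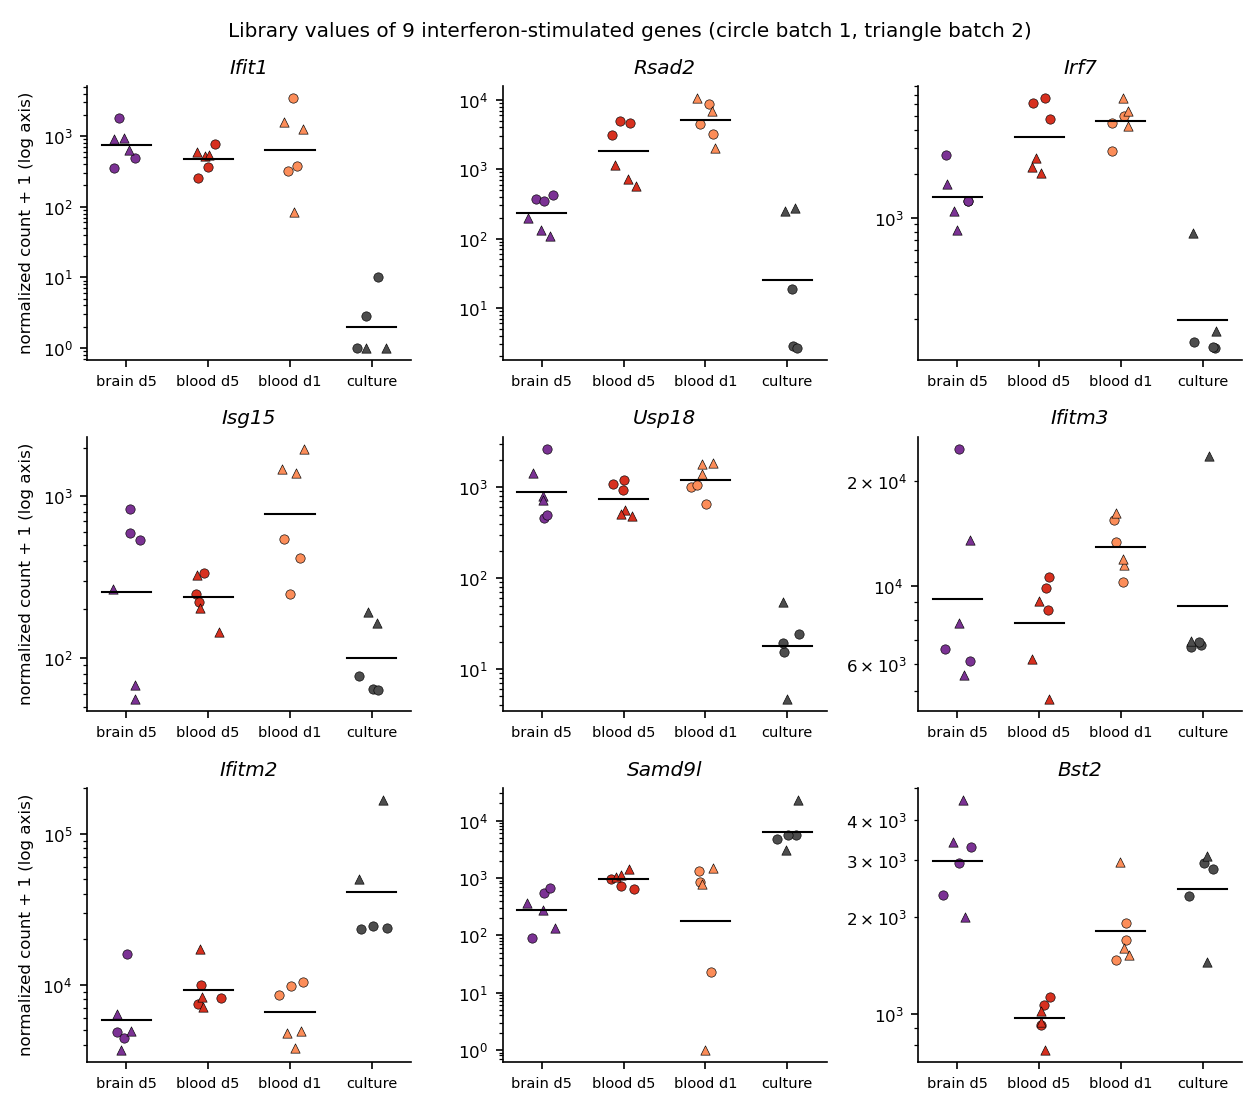
Normalized count + 1 on a log axis in every library for 9 interferon-stimulated genes, with circles for batch 1 and triangles for batch 2. Lines mark the mean of the log values. In Rsad2 the culture libraries of batch 2, at 247 and 271, stand above those of batch 1, at 1.65 to 18.1, and in Bst2 the blood day 5 libraries, at 771 to 1125, are below all brain libraries.

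Mx1 and Mx2 belong to the dynamin-like GTPases that trap viral nucleocapsids. Mx1 was not called in any comparison, at 78.4, 254 and 357 normalized counts in brain day 5, 114, 151 and 196 in blood day 5 and 86.7, 170.1 and 569 in blood day 1, against 292, 270.3, 294, 152 and 61.3 in culture. Mx2, which GENCODE M21 lists as a polymorphic pseudogene, had 17.04, 151 and 236 normalized counts in brain day 5, 0, 12.2 and 40.5 in blood day 5 and 0, 23.5 and 79.96 in blood day 1, against 12.6, 0, 0, 0 and 0 in culture. All 6 brain libraries were above culture, and both blood groups overlapped with it. Mx2 rose by 6.02 ± 1.29 in brain day 5 (adjusted p = 0.00041), and its differences of 2.18 in blood day 5 and 2.87 in blood day 1 were not called.

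Of the 4 sensor genes, Ifih1 (MDA5), Ddx58 (RIG-I) and Dhx58 (LGP2) detect viral RNA and Zbp1 detects Z-form nucleic acid and can start cell death. None of the 4 was called in either blood group against culture, where their differences lay between -1.89 (Ifih1, blood day 1) and 0.80 (Zbp1, blood day 1). Zbp1 had 80.003, 473 and 624 normalized counts in brain day 5, 1197, 1425 and 1946 in blood day 5 and 1121, 2180.4 and 2769 in blood day 1, against 858, 807, 794, 1502 and 2620.2 in culture. Every brain library was below every culture library, and Zbp1 fell by 1.72 ± 0.43 (adjusted p = 0.00193), a call lost in batch 1 alone at -0.51 (0.164). Ifih1 had 1511, 32.4, 1656, 298, 558 and 656 normalized counts in the brain day 5 libraries, 84.4, 212 and 289 in blood day 5 and 0, 177 and 309 in blood day 1, against 376, 252, 224, 212 and 476 in culture. Brain replicates 1 and 3 were the highest, replicate 2 lay below all but 1 of the blood libraries, and the brain difference of 0.65 ± 1.15 was not called (adjusted p = 0.674). Without the 4 libraries that stood apart, brain replicate 2 among them, Ifih1 was called higher in brain, by 1.59 relative to culture (adjusted p = 0.00978) and by 2.04 relative to blood day 5 (0.000453). Ddx58 and Dhx58 differed from culture in brain by -0.82 and -0.04, not called. Dhx58 shares exonic bases with Dhx58os.

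Ly6e, Ifitm2 and Ifitm3 together gave 48.92% to 66.92% of the normalized counts summed over the 37 genes, unadjusted for gene length, in brain day 5 libraries, 58.09% to 69.96% in blood day 5, 46.63% to 66.87% in blood day 1 and 61.82% to 86.72% in culture. Ifitm1, Ifitm2 and Ifitm3, in one cluster on chromosome 7, encode proteins that block fusion of virions with cell membranes. Ifitm2 had 3689.7, 4858 and 15832 normalized counts in brain day 5, 7093, 8225 and 17171 in blood day 5 and 3775, 6746 and 10449 in blood day 1, against 23828, 23478, 24542, 165948 and 50238 in culture. Culture lay above all recovered libraries, with replicate 4 at 165948, and Ifitm2 fell by 2.81 ± 0.46 in brain day 5 (adjusted p = 1.83e-05), 2.16 ± 0.46 in blood day 5 (0.000852) and 2.65 ± 0.46 in blood day 1 (0.000105). Ifitm3, the best studied of the family against influenza virus, had 5563, 7224 and 24554 normalized counts in brain day 5, 4754, 8790.2 and 10573 in blood day 5 and 10277, 12639 and 16146 in blood day 1, against 6676, 6764, 6914, 23538 and 6946 in culture. It was not called in any comparison, although without culture replicate 4 its blood day 1 difference was called at 0.98 (adjusted p = 0.0261). Ifitm1 had 1461, 2841, 1174, 747, 309 and 1027 normalized counts in brain day 5, 766, 1016, 1542, 5789.7, 3308 and 15625 in blood day 5 and 2761, 2703, 6345, 424, 334 and 719 in blood day 1, against 2406, 2183, 2405, 13265 and 7571 in culture. It fell by 2.02 ± 0.82 in brain day 5 (adjusted p = 0.0461), a call lost without any of culture replicates 4 and 5 or brain replicates 1, 3, 4, 5 and 6 (0.0515 to 0.151). In blood day 1 its difference of -1.68 was not called, and was called at -2.19 without replicate 3 of that group (adjusted p = 0.0466).

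Bst2 encodes tetherin, which holds budding virions at the cell surface. It had 1988, 3104 and 4587 normalized counts in brain day 5, 771, 979.5 and 1125 in blood day 5 and 1461, 1646 and 2946 in blood day 1, against 2313, 2932, 2804, 3095 and 1447 in culture. The blood day 5 libraries lay below every library of the other 3 groups. Bst2 fell by 1.33 ± 0.25 in blood day 5 (adjusted p = 0.000197), and its differences from culture of 0.29 ± 0.25 in brain day 5 (0.352) and -0.43 ± 0.25 in blood day 1 (0.194) were not called. Without culture replicate 5 the blood day 1 difference was called at -0.64 (adjusted p = 0.0449). The blood day 5 call of Bst2 was lost in batch 2 alone, at -1.23 (0.0927). Ly6e, which encodes a surface protein that limits coronavirus entry, had 15884, 22399 and 43762 normalized counts in brain day 5, 36293, 62270.3 and 75287 in blood day 5 and 43338, 61477 and 81423 in blood day 1, against 47021, 41169, 43179, 117865 and 41769 in culture. It fell by 1.15 ± 0.31 in brain day 5 (adjusted p = 0.00302) and was not called in blood, at 0.13 on day 5 and 0.24 on day 1.

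Parp9 and Dtx3l encode a pair of proteins that work as one ADP-ribosylating ubiquitin ligase, and their genes lie together with Parp14 on chromosome 16. Parp9 and Dtx3l share exonic bases. Parp9 had 360.1, 553 and 1036 normalized counts in brain day 5, 815, 895 and 1065 in blood day 5 and 214, 824 and 1165 in blood day 1, against 1480.3, 1554, 1487, 1182 and 4495 in culture. All recovered libraries lay below culture, and Parp9 fell by 1.64 ± 0.44 in brain day 5 (adjusted p = 0.00332) and 1.59 ± 0.44 in blood day 1 (0.00774), while -0.96 ± 0.44 in blood day 5 was not called (0.107). The blood day 1 difference was -0.51 without the 4 libraries that stood apart, and was not called (adjusted p = 0.124), nor was it in a fit of the blood day 1 and culture libraries alone (0.0545). It was not called in batch 1 alone (0.0719) or batch 2 alone (0.0916) either. The brain call of Parp9 was lost in batch 1 alone, at -1.13 (0.112). Dtx3l fell by 1.58 ± 0.56 in brain day 5 (adjusted p = 0.022), with 95.4 to 565 normalized counts, against 399.6 to 1306 in culture, and its call was lost without brain replicate 2 (0.0669) or culture replicate 1 (0.0501) or 3 (0.0536), and with the closest libraries averaged (0.0976). Parp14 was not called in any comparison, and Trim30a, which encodes a negative regulator of inflammasome and Toll-like receptor signalling, not in any against culture.

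Rtp4, which encodes a chaperone of receptors at the cell surface, had 759, 998 and 3586 normalized counts in brain day 5, 911, 1042 and 1575 in blood day 5 and 521, 1587 and 2546 in blood day 1, against 25.3, 10.96, 8.25, 30.5 and 7.39 in culture. Its groups lay far apart from culture, and it rose by 6.39 ± 0.47 in brain day 5 (adjusted p = 9.2e-11), 6.17 ± 0.47 in blood day 5 (8.78e-10) and 6.60 ± 0.47 in blood day 1 (3.9e-10). Ifi27l2a, a small interferon-induced membrane protein gene, had 646, 924 and 3096 normalized counts in brain day 5, 1233, 2795 and 4484 in blood day 5 and 2422, 4316 and 4732 in blood day 1, against 125, 45.7, 47.9, 131 and 395 in culture. It rose by 3.33 in brain day 5, 4.49 in blood day 5 and 5.16 in blood day 1, without overlap with culture. Ifi44, which encodes a cytoplasmic protein that slows cell growth, had 102, 168 and 308 normalized counts in brain day 5, 0, 2.79 and 72.7 in blood day 5 and 0, 15.3 and 77.1 in blood day 1. Culture held 3 reads of it in all, and the ratio of read rates of brain day 5 to culture was 307 (95% counting interval 105 to 1491, exact, counting error only). Ifi44 rose by 6.71 ± 1.16 in brain day 5 (adjusted p = 3.56e-05) and was not called in blood. Xaf1, which encodes an apoptosis factor, rose by 1.08 ± 0.37 in blood day 1 (adjusted p = 0.0298). Ifi35 fell by 1.07 ± 0.38 in brain day 5 (0.0222), with 701 to 3042 normalized counts, against 1740.3 to 5371 in culture. The Ifi35 call was lost without culture replicate 4 (adjusted p = 0.0927) or 5 (0.061) or brain replicate 3 (0.0585) or 5 (0.0605), and the gene overlaps Gm11626.

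Between the blood groups, day 5 against day 1, no gene of the 37 was called in either direction by limma, where 0.0982% of all genes were called higher and 0.00655% lower. At an unadjusted p under 0.05, limma had 4 of the 37, Isg15, Isg20, Ifi35 and Bst2, against 7.64% of all genes, edgeR had 3, against 8.23%, and DESeq2 4, against 10.3%. After adjustment edgeR called none and DESeq2 called 2 lower, Isg20 (-1.80, adjusted p = 0.0225) and Bst2 (-0.93, 0.0176). In limma the difference of Isg20 was -1.80 ± 0.44 (0.18), that of Isg15 was -1.72 ± 0.66 (0.577) and that of Bst2 was -0.90 ± 0.24 (0.238). The blood groups did not overlap in 1 of the 37 genes, Bst2, which was lower, against 0.517% of all genes, and in none that was higher, against 0.603%.

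Brain day 5 against blood day 5 compares the sites of recovery at one time, and there 3 of the 37 genes rose, against 33.6% of all genes, and 10 fell, against 14.3%. The 3 were Ifi44, Mx2 and Bst2, and the 10 were Rsad2, Isg20, Oas3, Zbp1, Irf7, Ly6e, Trim30a, Ddx58, Ifi35 and Irf9. The median over the 37 genes was -0.28, and 0.47 over all genes. With equal library totals and with TMM scaling the counts were 3 and 13 in both, the median of all genes shifted by -0.40 and -0.41, and 59.5% and 58.3% of called genes were higher in place of 70.1%. Of all genes tested, 4385 were called higher in both, in place of 5123, and 2981 and 3133 lower, in place of 2183. Rsad2 fell by 2.96 ± 0.97 (adjusted p = 0.0142), Isg20 by 2.94 ± 0.44 (6.59e-06), Oas3 by 2.71 ± 0.55 (0.000232) and Zbp1 by 2.08 ± 0.41 (0.000194), each without overlap between the groups. Trim30a fell by 1.21 ± 0.43 (0.025), also without overlap, Ddx58 by 1.19 ± 0.37 (0.00973) and Ifi35 by 0.90 ± 0.36 (0.0435). Groups did not overlap in 5 of the 37 genes that were lower, against 10.5% of all genes, and 2 that were higher, against 24.9%. Irf7 fell by 1.38 ± 0.42 (0.00842), Ly6e by 1.28 ± 0.29 (0.000805) and Irf9 by 0.74 ± 0.23 (0.0114), with overlapping libraries. These 3 calls were lost in batch 2 alone, at -0.96 for Irf7 (adjusted p = 0.18), -0.75 for Ly6e (0.2) and -0.64 for Irf9 (0.258). Bst2 rose by 1.62 ± 0.24 (adjusted p = 3.89e-06) and Ifi44 by 5.17 ± 1.11 (0.000429), both without overlap, and Mx2 by 3.84 ± 1.23 (0.0123). With edgeR on recovered reads only Bst2 of the 3 was called higher, at adjusted p of 0.085 for Ifi44 and 0.168 for Mx2. In batch 1 alone Ifi44, at 2.59 (adjusted p = 0.132), and Mx2, at 1.67 (0.424), were not called either. Ifit1, Ifit2, Rtp4, Usp18, Oasl1, Oasl2 and Cmpk2 differed by -0.65 (Oasl1) to 0.68 (Oasl2) and were not called. Ifi27l2a differed by -1.16, not called (adjusted p = 0.0528), and was called without blood day 5 replicate 4 (0.0285) or 5 (0.0309) or brain replicate 2 (0.0453) or 6 (0.014). The cell type markers differed between these libraries as well: the microglia list made up 0.554% to 1.59% in brain, against 0.0424% to 0.0588% in blood day 5, with 8 of its 9 genes higher, and the NK cell list 0.000148% to 0.00049%, against 0.291% to 0.622%, with all 6 lower. The part of these cell types in the differences was not tested.

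**Figure D5:**
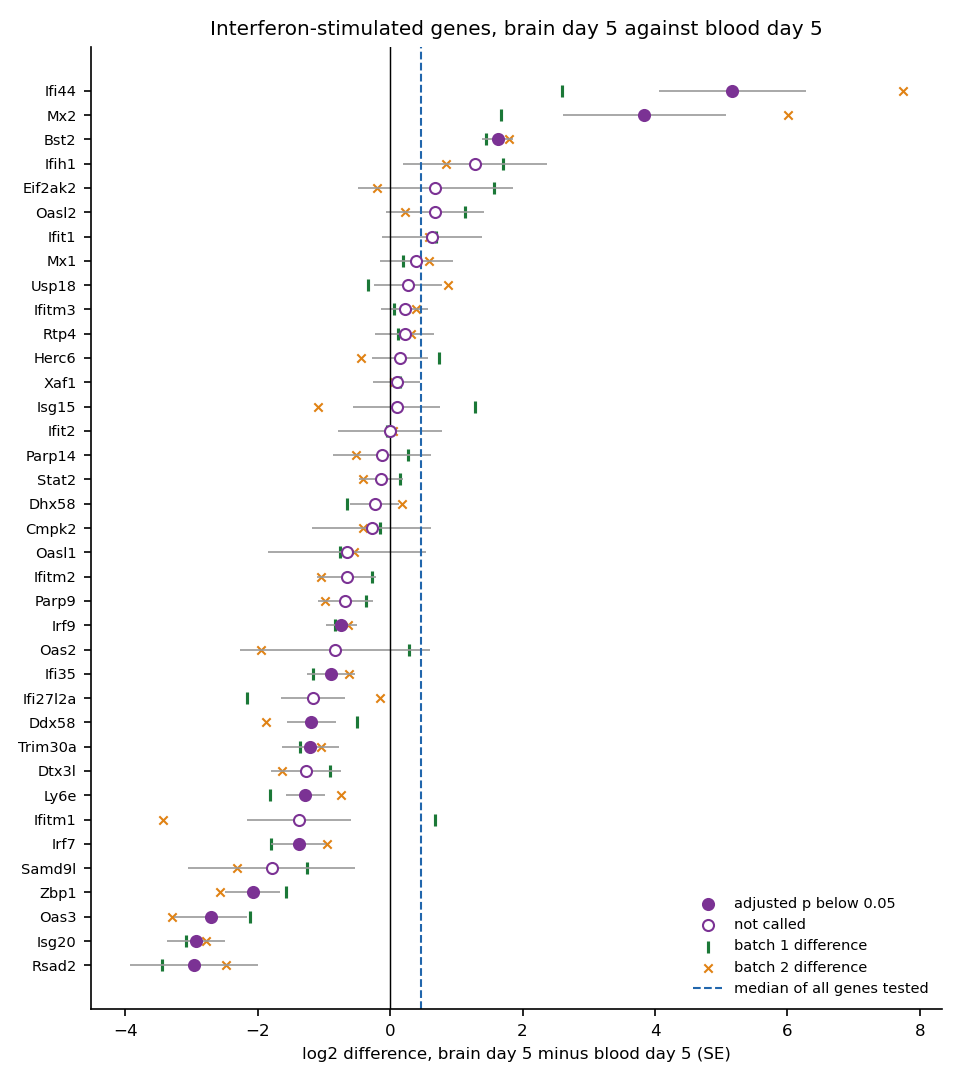
Log2 difference of each of the 37 genes between brain day 5 and blood day 5, with its standard error. Filled points passed an adjusted p of 0.05, bars and crosses give the difference within batch 1 and batch 2, and the dashed line is the median of all genes tested, 0.47. Ifi44, Mx2 and Bst2 lie at the right, at 5.17, 3.84 and 1.62, and Rsad2, Isg20, Oas3 and Zbp1 at the left.

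Summed over the 37 genes, normalized counts were 0.209% to 0.376% of a brain day 5 library (median 0.254%), 0.503% to 0.722% in blood day 5, 0.309% to 0.795% in blood day 1 and 0.423% to 1.43% in culture. The culture libraries spanned the widest range, and replicate 4 held the highest share.

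The batches differed in several of these genes. Across all 19945 genes, 14, none of them among the 37, were at 0 in every batch 1 library and at 100 or more in every batch 2 library, and the cause was not tested. The difference from culture differed between batches, by a test of the batch by group term in limma chosen after the data were seen, in 5 of the 37 genes for brain day 5, against 3.41% of all genes, 5 for blood day 5, against 8.42%, and 6 for blood day 1, against 9.63%. Rsad2 was among them in each: its difference from culture was 6.19 in batch 1 and -0.88 in batch 2 for brain day 5 (adjusted p = 0.000533), 9.64 and 1.60 for blood day 5 (9.94e-05), and 9.90 and 4.34 for blood day 1 (0.00209). For Isg15 in brain day 5 it was 3.25 in batch 1 and -0.83 in batch 2 (adjusted p = 0.00801). The brain libraries of batch 1 had 539 to 832 normalized counts of Isg15 and those of batch 2 had 54.9 to 267. For Oas2 in blood day 1 it was -0.29 and 8.21 (adjusted p = 0.0399), and for Mx1 -1.39 and 1.91 (0.0335). Ifitm1 differed in opposite directions between blood day 5 and blood day 1, -1.77 in batch 1 and 3.84 in batch 2 (adjusted p = 0.00245, against 0.144% of all genes called), and between brain and blood day 5, 0.67 and -3.43 (0.00953, against 1.05%). For Zbp1 in brain day 5 it was -0.51 in batch 1 and -3.19 in batch 2, and for Irf7 in blood day 5 5.45 and 2.64. Ifit1, Rtp4 and Usp18 were not called in this test, and in brain day 5 their differences from culture were 7.79, 6.48 and 5.44 in batch 1 and 9.68, 6.26 and 5.88 in batch 2.

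Genes of the pathway outside the 37 were read from lists chosen by name. Their counts stand against the shares of all genes called higher and lower than in culture, 37.5% and 11.7% in brain day 5, 19.6% and 11.4% in blood day 5, and 18.1% and 14% in blood day 1. Of 9 receptor and kinase genes, 5 rose and 2 fell in brain day 5 relative to culture, 8 rose in blood day 5 and 7 in blood day 1, with none lower in blood. Ifnar2 had 1465 to 3090.5 normalized counts in brain day 5, 1421 to 2536 in blood day 5 and 1149 to 2552 in blood day 1, against 11.1 to 89.4 in culture, and rose by 5.80 in brain day 5, 5.50 in blood day 5 and 5.54 in blood day 1. Ifngr1 had 3806 to 13599 normalized counts in brain day 5, 15301 to 34403 in blood day 5 and 7664 to 25071 in blood day 1, against 174 to 705 in culture, and rose by 4.18 in brain day 5, 6.00 in blood day 5 and 5.75 in blood day 1. Ifngr2 rose by 7.23 in brain day 5, 6.67 in blood day 5 and 5.81 in blood day 1, and Ifnar1 by 1.74 in brain day 5, 2.19 in blood day 5 and 1.94 in blood day 1. Of the 3 kinase genes, Jak1 fell in brain by 1.66 and Tyk2 by 1.30, and Jak2 was not called there (0.14, adjusted p = 0.843). Jak1 rose by 1.08 in blood day 5 and 0.87 in blood day 1.

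Of 7 other STAT and IRF genes, 2 rose and 3 fell in brain day 5 relative to culture, against 37.5% and 11.7% of all genes, 4 rose in blood day 5, against 19.6%, and 6 in blood day 1, against 18.1%. In brain against blood day 5 all 7 fell, against 14.3% of all genes. Irf1, which encodes an interferon-induced transcription factor, fell by 1.40 in brain relative to culture and by 2.13 relative to blood day 5. In replicate order, Irf1 had 2361, 2258, 2198, 932, 916 and 1519 normalized counts in brain day 5. Culture had 2717, 2760, 2948, 10426 and 5377, and the gap between these groups was wider in batch 2 than in batch 1. Socs1, an inhibitor of the JAK kinases, fell by 2.29 in brain relative to culture and was not called in blood, and of its list of 8 inhibitors 2 rose and 3 fell in brain, 4 rose and 1 fell in blood day 5, and 3 rose and 2 fell in blood day 1. Ifng, the type II interferon gene, averaged 3.28 ± 6.30 normalized counts in brain day 5, 543 ± 224 in blood day 5 and 447 ± 277 in blood day 1 (SD, n = 6 each), against 2179.9 ± 1470.3 in culture (SD, n = 5). It fell by 9.47 in brain and by 2.21 in blood day 1, and its difference of -1.67 in blood day 5 was not called. Within batches the blood day 1 difference of Ifng was -3.73 in batch 1 and -0.23 in batch 2. Ifnb1 was too low to be tested, with 0, 0 and 143 normalized counts in brain and no read in culture.

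Of 12 genes of nucleic acid sensing, 4 rose and 2 fell in brain day 5 relative to culture, against 37.5% and 11.7% of all genes, 7 rose in blood day 5, against 19.6%, and 6 in blood day 1, against 18.1%. The 12 include Trex1, a DNA exonuclease gene at 0 in every batch 1 library, which was not called. Of 13 genes known as targets of type II interferon, 6 rose and 3 fell in brain, 7 rose in blood day 5 and 9 in blood day 1, against the same shares. Of 28 further interferon-stimulated genes outside the 37, 10 rose and 8 fell in brain, 17 rose in blood day 5 and 18 in blood day 1, with none lower in either blood group, again against these shares. In brain against blood day 5, 3 of these 28 rose, against 33.6% of all genes, and 14 fell, against 14.3%.

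The ISRE matches were set beside the calls. Among the 26 genes with a window, the core was in 3 of 10 that were higher in brain day 5 than in culture, 2 of 7 that were lower and 7 of 9 that were not called. In blood day 5 it was in 3 of 9 that were higher, 2 of 2 that were lower, which are Ifitm2 and Bst2, and 7 of 15 not called, and in blood day 1 in 3 of 10, 1 of 2 and 8 of 14. Ifitm3, with 2 matches of the longer form just after its start site, was not called in any comparison, and Irf7 and Irf9 held no match in their windows.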

How the data were processed

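RNA sequencing (poly-A selection, random hexamer priming, 150 bp paired reads) had been done by the authors on 23 libraries, per the labels' protocols. The submitters' processing notes name fastp, HISAT2 2.0.5 and the mm10 build. A counting tool, an annotation and a strand setting were not stated there. The deposited values are a signal of normalized counts, reads per gene divided by 1 factor per library. Whole reads were recovered from them: 100% of values came out whole within 0.1 read (largest deviation 0.00103). Depth of 11.6 M to 58.1 M reads limits genes of few reads, and counting intervals and floors (3 reads) cover counting error only.

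The 15268 genes that reached 10 in 5 or more of the 23 libraries were tested with limma 3.58.1 (R 4.3.3) on log2(value + 1), with terms for group and the labels' batch over all libraries, empirical Bayes with trend and robust settings, two-sided, and Benjamini-Hochberg adjustment at 0.05. Groups follow the labels, and 5 comparisons were made. The procedure was tested on simulated data for blood day 1 against culture, with 50 genes changed at each size. It called 8% of the genes changed by 1 on the log2 scale, 36% by 2, 72% by 4 and 84% by 6. Of its calls, 6.54% were false. In that simulation only genes above a minimum mean count were changed, and the other genes had the same mean in every group and batch. The rates therefore cover neither genes of few reads nor differences between batches. A gene that was not called may thus still differ. Alternatives were pseudocounts of 0.5 and 8, no filter, equal library totals, edgeR 4.0.16 with TMM and DESeq2 1.42.0 on recovered reads, fits of both groups alone, within a batch, without the batch or with a replicate block, library weights, and each library left out. Leaving out the 4 libraries that stood apart, averaging the closest libraries and the batch by group test were chosen after seeing the data.

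The 40 genes and the other lists were chosen with earlier results of these data known. Library values were to be shown for a panel of 20 of the 40 by role and for the 4 largest changes each way per comparison (the higher group averaging 100 or more, one sign in both batches); other genes of the 37 were named after their values were seen.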

Additional observations from a re-analysis of the deposited data

Results flagged for a closer look

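In each group of 5 or 6 libraries, the gap from the highest or lowest value to its nearest neighbour was divided by the group's range (Dixon's criterion). This was done on the log2 scale for 19 of the 37 genes and the summed level of the 37 in 4 groups. Of 80 groups checked, 10 had a library far from the others, and chance flags about 1 in 20 groups. Brain day 5 replicate 2 was high in Isg20 (1111 normalized counts) and brain day 5 replicate 5 low in Zbp1 (80.0). Blood day 5 replicate 6 was low in Oas2 (19.5). Blood day 1 replicate 2 was low in Oas2 (0) and Oasl2 (167), and blood day 1 replicate 6 was high in Irf9 (6212) and low in Ifih1 (0). Culture replicate 4 was high in Irf7 (783), Ifitm3 (23538) and Ly6e (117865). Blood day 1 replicates 2 and 6 and brain day 5 replicate 2 are among the 4 libraries that stood apart from their groups.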

How the results depend on the processing

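No called gene of the 37 changed sign under equal library totals or TMM scaling. Of 111 values of named genes, 34 had the other sign under at least 1 alternative, 32 of them with no call on either side. The other 2 were called on one side: Rsad2 in brain day 5 relative to culture was -0.88 in batch 2 alone (adjusted p = 0.315), where the culture libraries were high, and Mx1 in blood day 1 relative to culture was -0.87 with library quality weights (0.0162). Leaving out 1 library gave 13 to 16 genes of the 37 higher and 8 to 11 lower in brain day 5 relative to culture, 12 to 13 and 2 to 3 in blood day 5, 12 to 17 and 3 to 4 in blood day 1, 3 to 3 and 9 to 11 in brain against blood day 5, and 0 to 0 either way between the blood groups. Over all genes the calls were 7092 to 7669, 4194 to 4813, 4073 to 5147, 6860 to 7463 and 6 to 21 in the same comparisons.

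With library quality weights 22 of the 37 were higher and 10 lower in blood day 5 relative to culture (9633 of all genes called), 24 higher and 10 lower in blood day 1 (9921), and 2 lower in blood day 5 against day 1 (357). DESeq2 called 5 lower in blood day 5 relative to culture and 2 lower in blood day 5 against day 1 (133 of all genes), and edgeR 1 higher in brain against blood day 5, and 5 of all genes between the blood groups. Fits of both groups alone called 5 lower in blood day 5 and 1 lower in blood day 1 relative to culture, and 10 of all genes between the blood groups. Batch 1 alone called 6 lower in brain day 5 relative to culture and 7 of all genes between the blood groups. Batch 2 alone called 6 lower in brain against blood day 5, 1 higher and 1 lower between the blood groups (80 of all genes), and 2677 of all genes in blood day 1 relative to culture. Averaging the closest libraries called 9 of all genes between the blood groups. Where no number of all genes stands beside a count of the 37, the count has no background here. The within-batch fits use fewer libraries, and for the others the cause was not tested.

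Deviations of same-numbered libraries of different groups had correlations of -0.104 to 0.189, against -0.167 to 0.12 for other numbers. A library correlated best with its own number in 17 of 33 cases, each with 3 candidates. These values do not settle whether the numbers mark pairs, and the main fit did not read them as pairs. With the replicate block 14 of the 37 were higher and 9 lower in brain day 5 relative to culture, 12 and 2 in blood day 5, 12 and 3 in blood day 1, 3 and 11 in brain against blood day 5, and 0 and 0 between the blood groups, where 10 of all genes were called in place of 16. Apart from the comparison of the blood groups, the numbers of all genes called with the block are not given here. Counting error limits genes of few reads such as Ifi44 and Mx2. Both were at 0 in the 2 culture libraries of batch 2, which were deeper than those of batch 1. The part of depth in these zeros was not tested.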
